A study of Mus musculus with 14 samples.

Results

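Glycolysis splits glucose into pyruvate, the pentose phosphate pathway turns part of the glucose 6-phosphate into NADPH and ribose phosphate, and glycogen is the store that cells build from and return to the same sugar phosphates. In fat cells, glucose supplies the glycerol backbone of triglyceride and the carbon for fatty acids, and NADPH supplies the reducing power of fatty acid synthesis. Glucose enters through carriers of the SLC2 family and is trapped by hexokinases. Phosphofructokinase sets the pace of the upper steps, and pyruvate kinase and lactate dehydrogenase close the lower ones.

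The 32 genes described here are enzymes of these routes, with the glucose carrier Slc2a1 and the regulator Pfkfb3. They were taken from a list of names and not from their values. A probe set counted for a gene where the platform annotation gave it that gene's symbol and no other, and a gene's value is that of its brightest probe set over the 14 arrays. By this rule 29 of the 32 genes had 64 probe sets, against 18194 genes on the whole array. Eno1, G6pdx and Gpi1 had no probe set with 1 symbol and were not analysed here. Of the 29, Pfkfb3, Aldoc and Eno2 did not reach an intensity of 50 on 3 arrays, which left 26 tested members among 8683 tested genes.

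Messenger RNA was measured on Affymetrix Mouse Genome 430 2.0 arrays in 3T3-L1 cells, a mouse preadipocyte line. One culture had been transduced with an empty virus and the other with a retrovirus that expresses SETD5, tagged with V5 and driven by a weak LTR promoter in the study's methods. SETD5 belongs to the SET domain proteins and works with corepressor complexes. Both were brought to confluence and given insulin, dexamethasone and isobutylmethylxanthine (MDI mixture) for 48 h, then insulin alone. RNA came from 0, 12, 24, 36, 48, 96 and 192 h, with 1 array for each virus and hour. No hour was replicated, so the hours stand in for replicates, and any other difference between the 2 transduced cultures cannot be told apart from SETD5.

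Differences are log2(intensity + 16), SETD5 virus minus empty virus at the same hour unless stated, with limma's standard error (SE). The SE comes from the residual spread over all the hours fitted, moderated by limma across genes, whichever hours are compared. A late difference between the viruses can therefore also widen the SE of an early change. A gene was called where its p, adjusted over all 8683 genes, was under 0.05. The intensity was 50 or more for 88.4% to 93.8% of the tested genes on each array. The Setd5 probe set read 249 to 378 with the empty virus and 239 to 350 with SETD5, a mean difference of -0.03 ± 0.06 (adjusted p = 0.788), and whether it can read the viral transcript was not tested. Of 8 adipocyte markers with a probe set, 7 were tested. All 7 rose late with the empty virus, against 3.39% of all genes, and 6 of them were lower late with SETD5, against 4.56%. Their summed intensity reached 36882 with the empty virus and 20265 with SETD5 at the late hours. Of 9 tested preadipocyte and fibroblast markers, 2 were higher late with SETD5, against 7.43% of all genes. None of the macrophage, endothelial or skeletal muscle markers passed the filter, and no single one of them read above 50.6. The part of the change in fat cell content in the values below was not tested. In such bulk RNA, fewer fat cells and less RNA per fat cell cannot be told apart.

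The 3 members lowest late with SETD5 relative to the empty virus (Taldo1, Hk2 and Gys1) and Ldha, a gene of the early rise in both cultures, are shown first by the 250 bases before their start in RefSeq (GRCm38.p6). They are shown as examples of these 2 patterns, and whether the members of a pattern share regulation was not tested. Capitals mark 2 motifs searched on both strands, ACGTG, the core bound by hypoxia-inducible factors, and GGGCGG, the box bound by SP1 family factors. The positions are chr7:141391910-141392159 on the plus strand for Taldo1, chr6:82774455-82774704 on the minus strand for Hk2, chr7:45434589-45434838 on the plus strand for Gys1 and chr7:46845554-46845803 on the plus strand for the first of 2 Ldha starts.
Taldo1: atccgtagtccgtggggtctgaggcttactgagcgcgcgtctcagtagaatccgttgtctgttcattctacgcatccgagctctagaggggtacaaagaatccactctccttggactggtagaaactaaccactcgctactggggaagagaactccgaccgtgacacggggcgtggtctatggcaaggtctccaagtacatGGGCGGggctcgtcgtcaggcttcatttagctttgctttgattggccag
Hk2: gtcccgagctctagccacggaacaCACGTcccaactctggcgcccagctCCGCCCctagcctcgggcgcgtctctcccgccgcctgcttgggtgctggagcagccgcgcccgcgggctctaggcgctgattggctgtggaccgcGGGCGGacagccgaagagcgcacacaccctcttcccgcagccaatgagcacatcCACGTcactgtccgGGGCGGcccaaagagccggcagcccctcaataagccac
Gys1: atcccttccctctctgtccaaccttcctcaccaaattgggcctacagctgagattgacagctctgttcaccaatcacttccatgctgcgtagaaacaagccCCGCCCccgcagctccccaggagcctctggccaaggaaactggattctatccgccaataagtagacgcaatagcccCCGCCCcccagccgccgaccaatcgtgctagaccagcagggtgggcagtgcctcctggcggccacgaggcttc
Ldha: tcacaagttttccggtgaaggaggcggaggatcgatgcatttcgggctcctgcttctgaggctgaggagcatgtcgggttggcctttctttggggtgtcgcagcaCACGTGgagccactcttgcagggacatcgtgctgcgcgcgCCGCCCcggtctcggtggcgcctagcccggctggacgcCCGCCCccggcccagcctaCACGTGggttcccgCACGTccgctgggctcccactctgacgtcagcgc

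Counted on both strands, the Ldha stretch held ACGTG 5 times and the Hk2 stretch 2 times, while those of Taldo1 and Gys1 held none. Each CACGTG in the Ldha stretch reads as ACGTG on either strand and so was counted on both. GGGCGG stood 3 times before Hk2, 2 times before Gys1 and Ldha and 1 time before Taldo1. The 250 bases before the second Ldha start, which are not printed, held neither motif. Over whole windows of 300 bases (250 before and 50 after each start), ACGTG was found for 17 of the 32 listed genes, against 21.8% of 27025 genes, and GGGCGG for 26 of the 32, against 38.2%. ACGTG was in the windows of 5 of the 7 members that rose at 12 h (Gapdh, Ldha, Pgam1, Pgk1 and Pkm) and of 2 of the 7 that were lower late with SETD5 (Aldoa and Hk2). GGGCGG was in the windows of all 7 of the latter and of 6 of the 7 that rose at 12 h. The palindrome CACGTG, which contains ACGTG, was found for 3 of the 32 (Ldha, Pfkfb3 and Pfkm) against 8.09% of genes. TTGCNNAA, a core of C/EBP sites, was found for 5 (Pfkm, Pgls, Pkm, Rpia and Ugp2) against 12.2%, and the DR1 repeat bound by PPAR and RXR (AGGTCA, any 1 base, AGGTCA) for 0 against 0.0481%. A match describes the letters and no binding, and members with several starts had more than 1 window.

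Genes of lower glycolysis rose in both cultures over the first 12 h of the MDI mixture. Over both viruses, 7 of 26 members rose from 0 to 12 h and 6 fell, against 19.9% and 27.9% of all tested genes. Those that rose were Pkm, Rpe, Ldha, Pgd, Pgam1, Gapdh and Pgk1, 5 of the 7 tested genes of lower glycolysis and 2 of the pentose phosphate pathway. Those that fell were Ldhb, Slc2a1, Pygb, Hk1, Ugp2 and Pfkm. With arrays scaled to a common median the counts were 9 higher and 4 lower, and Ugp2 and Pfkm were not called. Pfkm was also lost after quantile normalization, and Ugp2 and Pgd with no filter. The median change of lower glycolysis was 0.51, against -0.06 over all genes and -0.62 over the 3 genes of glucose entry and trapping. These 3 did not move alike, since Slc2a1 and Hk1 fell whereas Hk2 went up and just missed the call (0.88 ± 0.33, adjusted p = 0.0501).

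**Figure D1:**
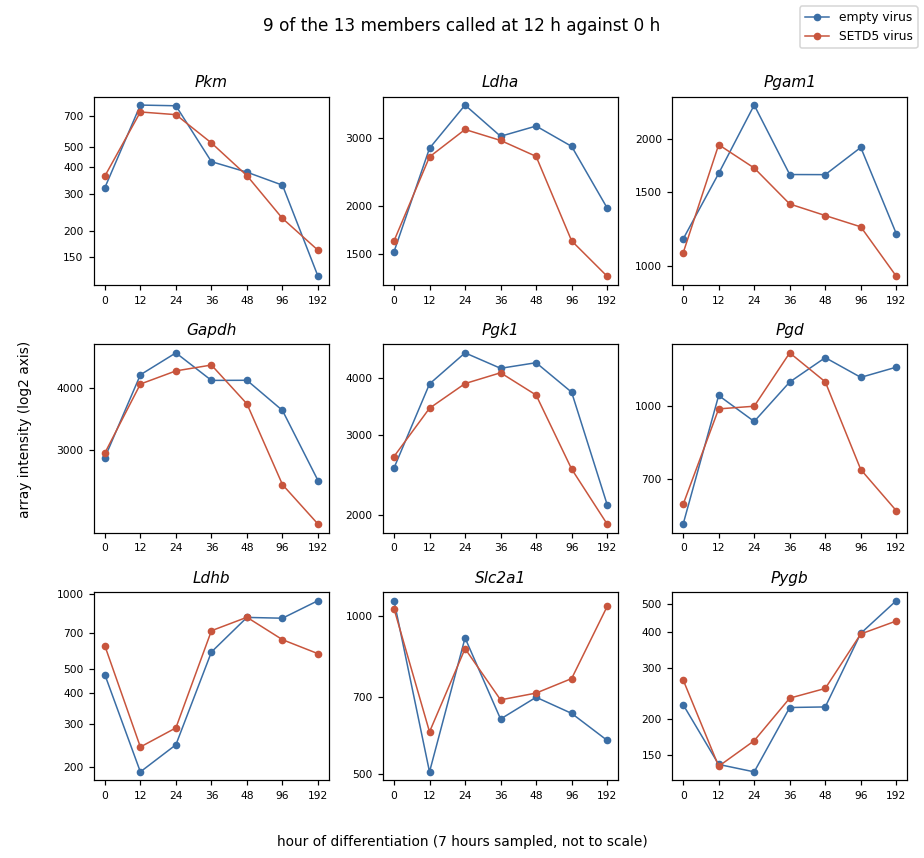
Array intensity on a log2 axis at the 7 hours for 9 of the 13 members called at 12 h against 0 h, 1 point per array, empty virus in blue and SETD5 virus in red. Pkm, Ldha, Pgam1, Gapdh, Pgk1 and Pgd rose from 0 to 12 h in both cultures, Ldhb, Slc2a1 and Pygb fell in both, and at 96 h the red line lies below the blue one for the first 6 of these.

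Pkm, which makes pyruvate and ATP in the last step of glycolysis, read 320, 787, 781, 425, 379, 329 and 122 with the empty virus and 363, 730, 709, 521, 365, 229 and 162 with SETD5 at 0, 12, 24, 36, 48, 96 and 192 h. Both cultures peaked at 12 and 24 h and ended lowest at 192 h. The change from 0 h was 1.12 ± 0.19 at 12 h (adjusted p = 0.000909) and -1.19 ± 0.19 at 192 h (adjusted p = 0.00262). The late difference between the viruses was 0.03 ± 0.14 (adjusted p = 0.914).

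Ldha, the lactate dehydrogenase subunit that favours making lactate, read 1516, 2827, 3666, 3038, 3231, 2859 and 1973 with the empty virus and 1618, 2684, 3165, 2963, 2692, 1619 and 1308 with SETD5. Ldhb, the subunit that favours taking lactate up, read 474, 192, 247, 585, 807, 801 and 943 with the empty virus and 620, 242, 289, 713, 808, 656 and 576 with SETD5. At 12 h Ldha rose and Ldhb fell, with changes of 0.81 ± 0.20 (adjusted p = 0.00782) and -1.27 ± 0.23 (adjusted p = 0.00157). Ldhb then rose with the empty virus to its highest array at 192 h (late against early hours 1.40 ± 0.34, adjusted p = 0.0385), whereas with SETD5 its highest array was at 48 h. That late rise was not called when the pair of any 1 hour other than 0 h was left out. The change of Ldhb over time differed between the viruses by -0.47 ± 0.21 (adjusted p = 0.397), and by -0.79 ± 0.17 (adjusted p = 0.0186) with 96 and 192 h as late. Ldha and Ldhb were both lower with SETD5 at 96 and 192 h. The other 3 Ldhb probe sets had the same low at 12 and 24 h in both cultures.

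Gapdh, Pgk1 and Pgam1, the 3 enzymes before enolase, shared the early rise. Their changes at 12 h were 0.51 ± 0.14 for Gapdh (adjusted p = 0.0155), 0.48 ± 0.14 for Pgk1 (adjusted p = 0.0197) and 0.68 ± 0.18 for Pgam1 (adjusted p = 0.0102). Pgk1 missed the threshold after quantile normalization (adjusted p = 0.0526). Gapdh lay between 2607 and 4717 in the empty virus culture and between 2130 and 4458 in the SETD5 culture. The same ranges were 2110 to 4530 and 1913 to 4098 for Pgk1, and 1159 to 2414 and 945 to 1943 for Pgam1. Gapdh is read by control probe sets along the transcript, and the 3′ over 5′ ratio was 0.82 to 0.909 over all arrays. The same ratio of the beta-actin control sets varied more, from 1.57 to 2.51, and was highest at 36 h in each culture. Tpi1, which joins the products of aldolase, ranged from 1895 to 3359 and from 1787 to 3083, was not called at 12 h (-0.01 ± 0.16, adjusted p = 0.949), and had its highest array at 24 h in both cultures. Eno2, the neuronal enolase, stayed between 4.4 and 34.4 on every array.

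At 48 h, the end of the mixture, 6 members were above 0 h over both viruses (Taldo1, Pgd, Ldha, Pfkl, Pgk1 and Gapdh) and 2 below (Hk1 and Slc2a1), against 14.4% and 19.9% of all genes. The call of Slc2a1 was lost in 8 of 13 other settings and that of Gapdh in 6 of 13, and with a common median 8 members were above and 1 below. At 192 h, 2 were above (Pygb and Rpia) and 4 below (Pkm, Pgm2, Hk1 and Pfkp), near the shares of all genes, 7.3% and 12.3%. The median change of all 26 members was 0.40 at 48 h and 0.11 at 192 h, against -0.03 and -0.06 over all genes. From 48 to 192 h the members' median change from 0 h went from 0.53 to 0.42 with the empty virus. With SETD5 it went from 0.28 to -0.20.

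**Figure D2:**
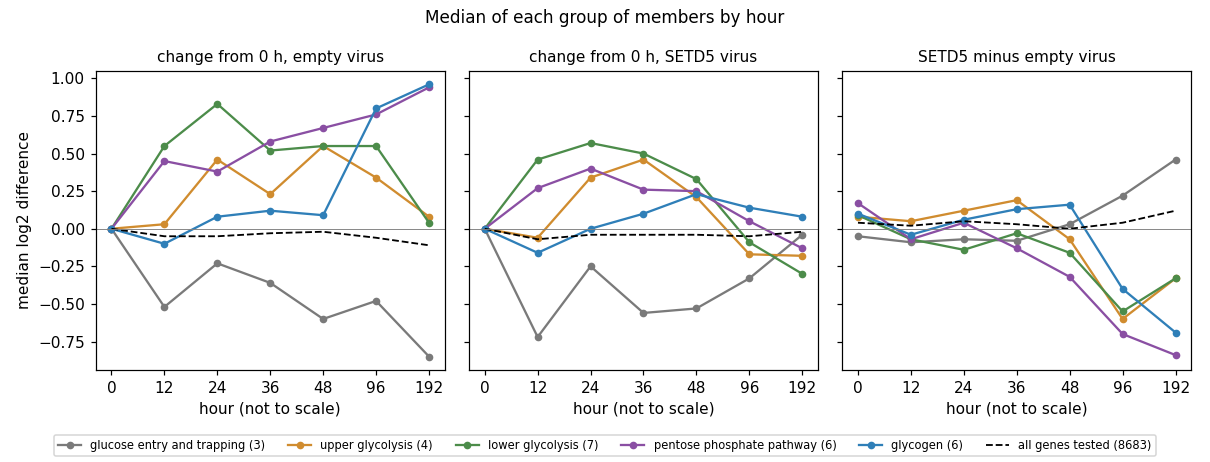
Median log2 difference at each hour for the 5 groups of members (number of tested genes in the key) and for all tested genes (dashed), as the change from 0 h with the empty virus (left), the change from 0 h with the SETD5 virus (middle) and SETD5 virus minus empty virus (right). With the empty virus the medians of the pentose phosphate and glycogen groups end near 0.94 and 0.96, with SETD5 near -0.13 and 0.08.

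A second set of members rose late in the empty virus culture. Of 26 members 6 were higher at 36 to 192 h than at 0 to 24 h and 0 were lower, against 3.39% and 1.89% of all genes. They were Taldo1, Gbe1, Aldoa, Pgm1, Ldhb and Pygb. At an unadjusted p under 0.05, 13 members passed, 10 higher and 3 lower. The share of all genes at that threshold was not counted. With SETD5 the same contrast called 0 members in either direction in limma, against 0.115% and 0.104% of all genes. At an unadjusted p under 0.05, 6 members passed, 3 higher and 3 lower, again with no share of all genes to set beside them. The changes of Ldhb (0.92 ± 0.34, adjusted p = 0.243) and Pygb (0.74 ± 0.23, adjusted p = 0.184) were also upward with SETD5, and for Pygb the change over time differed between the viruses by -0.17 ± 0.15 (adjusted p = 0.641). In the empty virus culture no member was called without the 192 h pair of arrays, and the call of Pygb was lost without the pair of any 1 hour but 0 h. Without the 0 h pair, 6 members were called in the SETD5 culture, 3 of them higher.

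By hour, the median change of the 6 pentose phosphate genes from 0 h with the empty virus came to 0.45, 0.67 and 0.94 at 12, 48 and 192 h. With SETD5 it was 0.27, 0.25 and -0.13. The 6 glycogen genes had medians of 0.09, 0.80 and 0.96 at 48, 96 and 192 h with the empty virus, and of 0.23, 0.14 and 0.08 with SETD5. Lower glycolysis came back to 0.04 at 192 h with the empty virus and went to -0.30 with SETD5.

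At 0, 12 and 24 h no member was called between the viruses. Of 26 members 0 were called in the early effect in limma, higher or lower, against 0.023% and 0% of all genes, and 0 passed an unadjusted p under 0.05. The early differences ran from -0.25 (Gys1) to 0.30 (Ldhb), with a median of 0.02.

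At 36 to 192 h, 7 of 26 members were lower with SETD5 and 1 was higher, against 4.56% and 7.43% of all genes. The 7 were Taldo1, Hk2, Gys1, Aldoa, Rpia, Tkt and Rpe, and the 1 was Pgm2. The median over the 26 was -0.34, against 0.04 over all genes, and 18 of the 26 differences were negative. With no block for the hour, 0 members were called. The pentose phosphate group held 4 of the 7, and all 6 of its tested genes had negative differences. Over all 7 hours together, 0 members were higher and 1 was lower, against 2.73% and 0.887% of all genes. That 1 was Gys1 (-0.64 ± 0.15, adjusted p = 0.0474), which missed the threshold in 13 of 15 other settings. The late effect minus the early effect called 0 members in limma, against 0.0115% of genes in each direction. At an unadjusted p under 0.05, 9 members passed, all lower, and the share of all genes at that threshold was not counted.

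**Figure D3:**
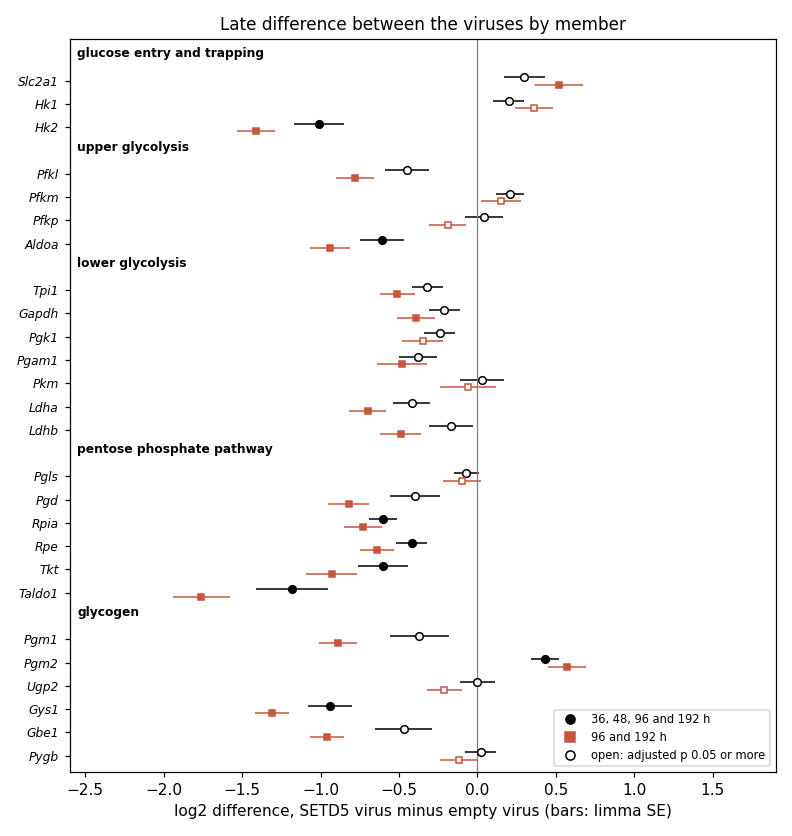
Log2 difference, SETD5 virus minus empty virus, for the 26 tested members by group, over 36 to 192 h (black circles) and over 96 and 192 h alone (red squares), with limma's SE as bars. Filled marks were called, and most squares lie farther from 0 than the circle above them.

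The difference was larger at 96 and 192 h than at 36 and 48 h. With SETD5, 14, 16, 22 and 21 of 26 members were lower at 36, 48, 96 and 192 h, against 44.3%, 50.5%, 44.2% and 38.4% of all genes. The median difference was -0.03, -0.17, -0.57 and -0.53 at these hours. When only 96 and 192 h were taken as late, 16 members were lower and 2 (Slc2a1 and Pgm2) higher, against 11.5% and 15.8% of all genes, with a median of -0.50 against 0.08. All 8 calls of the wider window were among these 18. In this window the change from the early hours also differed between the viruses for 13 members, all downward with SETD5, against 6.18% of all genes (4.36% went upward). These 13 were Taldo1, Hk2, Gys1, Gbe1, Tkt, Pgm1, Pgd, Aldoa, Pfkl, Ldhb, Rpe, Ldha and Rpia.

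Taldo1, the transaldolase that moves sugar carbons between the pentose phosphate pathway and glycolysis, had the largest late difference of the members. It read 294, 414, 553, 652, 1333, 1358 and 1992 with the empty virus and 366, 431, 544, 531, 708, 499 and 453 with SETD5 at 0, 12, 24, 36, 48, 96 and 192 h. The cultures overlapped up to 24 h, and from 48 h every empty virus array was above every SETD5 array. Taldo1 rose by 1.57 ± 0.28 late with the empty virus (adjusted p = 0.0109) and by 0.28 ± 0.28 with SETD5, which was not called (adjusted p = 0.668). The difference between these changes was -1.29 ± 0.35 (adjusted p = 0.334) with 36 to 192 h as late, and -1.87 ± 0.24 (adjusted p = 0.00188) with 96 and 192 h. Its late effect was -1.18 ± 0.23 (adjusted p = 0.015), or 2.26-fold lower, with a difference of -2.10 at 192 h. Without the 96 h pair the late effect was not called, nor was the late rise without the 12 or the 192 h pair.

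**Figure D4:**
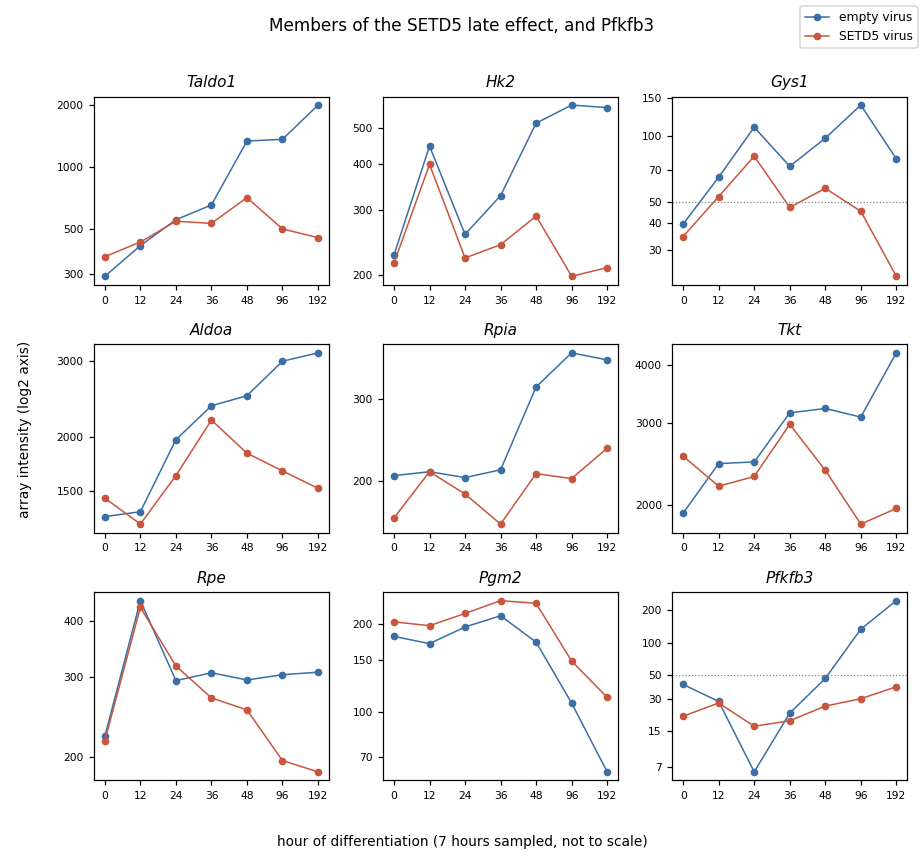
Array intensity on a log2 axis at the 7 hours for the 8 members called in the late effect and for Pfkfb3, 1 point per array, empty virus in blue and SETD5 virus in red, with the filter of 50 dotted where a gene crosses it. At 96 and 192 h the SETD5 arrays lie below the empty virus arrays for each gene but Pgm2.

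Tkt, the transketolase that works beside it, read 1923, 2456, 2476, 3156, 3225, 3091 and 4246 with the empty virus and 2547, 2196, 2304, 2982, 2376, 1821 and 1967 with SETD5. Its late effect was -0.60 ± 0.16 (adjusted p = 0.0403). The second Tkt probe set, which lacks the _x_at suffix of sets that may cross-hybridise, gave -0.81 ± 0.20 (adjusted p = 0.0315). That p comes from a limma fit of every probe set that passed the filter and was adjusted over those sets. The call of Tkt was lost after quantile normalization and without the pair of any 1 hour but 36 h. Rpia and Rpe turn ribulose 5-phosphate into ribose and xylulose phosphate. Rpia read 205, 209, 203, 211, 319, 378 and 365 with the empty virus and 166, 209, 187, 161, 207, 202 and 235 with SETD5 (late effect -0.60 ± 0.09, adjusted p = 0.00795). Rpe read 222, 444, 295, 307, 296, 304 and 308 and, with SETD5, 217, 429, 318, 270, 254, 196 and 185 (-0.42 ± 0.10, adjusted p = 0.0319), a call that was also lost without the pair of any 1 hour but 36 h. Rpe thus shared the rise of the first 12 h in both cultures (0.94 ± 0.19, adjusted p = 0.0024), whereas the SETD5 arrays of Rpia from 36 h on were 161 to 235 against 211 to 378.

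Of the remaining pentose phosphate genes, Pgd, the second NADPH-making dehydrogenase, ranged from 562 to 1270 in the empty virus culture and from 600 to 1300 in the other. It rose at 12 h (0.78 ± 0.26, adjusted p = 0.0327) in both cultures, and its difference was 0.20 at 36 h and -0.99 at 192 h. The late effect of Pgd was not called over 36 to 192 h (-0.40 ± 0.16, adjusted p = 0.132) and was called over 96 and 192 h (-0.82 ± 0.13, adjusted p = 0.00236). Pgls, the lactonase between the 2 dehydrogenases, ranged from 377 to 569 and from 353 to 590 and was called in no comparison.

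The 2 hexokinases phosphorylate glucose to hold it in the cell. Hk2, the form induced by insulin, read 227, 446, 258, 328, 514, 575 and 566 with the empty virus and 216, 398, 223, 242, 289, 199 and 210 with SETD5. Hk1, the constitutive form, read 205, 138, 132, 156, 129, 142 and 106 with the empty virus and 223, 129, 162, 146, 145, 174 and 152 with SETD5. Hk2 had a first high at 12 h in both cultures, and from 48 h on it stood at 514 to 575 with the empty virus against 199 to 289. Its late effect was -1.01 ± 0.16 (adjusted p = 0.00759), 2.01-fold lower, and it was called with each hour left out in turn. Hk1 fell from 0 h over both viruses at 12, 48 and 192 h (-0.62 ± 0.14 at 12 h, adjusted p = 0.00543), and its late effect was 0.20 ± 0.10 (adjusted p = 0.222).

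Slc2a1, the carrier of basal glucose uptake, read 1071, 504, 909, 636, 700, 652 and 579 with the empty virus and 1034, 601, 867, 692, 713, 760 and 1044 with SETD5. Both cultures dipped at 12 h (-0.92 ± 0.19, adjusted p = 0.0034). At 192 h the empty virus array was at 579 and the SETD5 array was back at its 0 h level. Over 96 and 192 h Slc2a1 was higher with SETD5 (0.52 ± 0.15, adjusted p = 0.028), and over 36 to 192 h it was not called (0.30 ± 0.13, adjusted p = 0.151). The other 2 Slc2a1 probe sets gave 0.30 and 0.28.

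The products of the 3 phosphofructokinase genes form the pacing enzyme as mixed tetramers. Pfkl, the liver form, read 43.8, 44.7, 68.6, 62.7, 90.2, 74.1 and 58.5 with the empty virus and 39.4, 50.5, 79.1, 60, 76.4, 31.9 and 31.7 with SETD5. Pfkm, the muscle form, read 189, 139, 182, 198, 232, 202 and 169 and, with SETD5, 230, 168, 204, 287, 242, 209 and 205. Pfkp, the platelet form, read 202, 225, 278, 212, 178, 162 and 122 and, with SETD5, 204, 218, 295, 290, 196, 123 and 120. Pfkp ended lower than it began in both cultures (-0.68 ± 0.16 at 192 h, adjusted p = 0.0165). Pfkl was lower with SETD5 over 96 and 192 h (-0.78 ± 0.12, adjusted p = 0.0018), at intensities under the filter in the SETD5 culture, where the difference depends partly on the offset. A dimmer second Pfkl probe set did not show it, reading 35.8 and 31.6 at 96 and 192 h with the empty virus and 34.6 and 30.3 with SETD5. Pfkm was higher with SETD5 at all 7 hours but was called in none of the SETD5 effects (0.22 ± 0.07 over all hours, adjusted p = 0.103).

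Pfkfb3 makes fructose 2,6-bisphosphate, the activator of phosphofructokinase, and is described without a test because it did not pass the filter. It read 40.8, 28.4, 6.3, 22.1, 46.4, 133 and 245 with the empty virus and 20.7, 27.5, 16.7, 18.8, 25.7, 30.1 and 38.9 with SETD5. Only the empty virus arrays of 96 and 192 h were above 50.

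Aldoa, the main aldolase, read 1307, 1342, 1972, 2365, 2496, 3002 and 3139 with the empty virus, the highest value being at the last hour. With SETD5 it read 1443, 1256, 1628, 2191, 1835, 1669 and 1521 and was highest at 36 h. It rose by 0.85 ± 0.16 late with the empty virus (adjusted p = 0.0148), and its late effect was -0.61 ± 0.14 (adjusted p = 0.0281). Both calls were lost without the 12, 48, 96 or 192 h pair. The change over time differed between the viruses by -0.53 ± 0.22 (adjusted p = 0.371), and by -0.86 ± 0.17 (adjusted p = 0.0152) with 96 and 192 h as late. All 5 Aldoa probe sets carry the _x_at suffix, as did the main sets of Tpi1, Ldhb, Pgd and Tkt, so these may also read related sequences. In the limma fit of every probe set, adjusted over those sets, 4 of the 5 Aldoa sets were lower late with SETD5. They gave -0.61, -0.74, -0.92 and -0.68, and the dimmest gave -0.22 ± 0.11 (adjusted p = 0.199). Aldoc, the brain form, read 7.4 to 15.6 on the 14 arrays.

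Gys1, the glycogen synthase of tissues other than liver, read 39.6, 64.9, 110, 72.8, 97.9, 139 and 78.8 with the empty virus and 34.7, 52.9, 81, 47.2, 57.7, 45.3 and 22.8 with SETD5. It was lower with SETD5 at each of the 7 hours, and by most at 96 h (-1.34). The late effect was -0.94 ± 0.14 (adjusted p = 0.00759), 1.91-fold lower. Since 3 of the 4 late SETD5 arrays were under 50, this size depends partly on the offset. It ran from -1.31 to -0.58 over all settings tried.

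Gbe1, the enzyme that branches glycogen, read 37.6, 43.8, 40.1, 38.7, 46.2, 117 and 126 with the empty virus and 41.4, 45.3, 37.7, 35.2, 52.8, 55.9 and 52.9 with SETD5. It thus came up between 48 and 96 h in the empty virus culture. The late rise there was 0.67 ± 0.13 (adjusted p = 0.0143), against 0.17 ± 0.13 with SETD5 (adjusted p = 0.551), a difference of -0.49 ± 0.27 that was not called (adjusted p = 0.481). The rise was lost without the 24, 96 or 192 h pair. Over 96 and 192 h Gbe1 was lower with SETD5 (-0.96 ± 0.11, adjusted p = 0.000431). Pygb, the brain form of glycogen phosphorylase, which takes glycogen apart, fell at 12 h (-0.77 ± 0.14, adjusted p = 0.0014) and was above 0 h at 192 h (0.89 ± 0.14, adjusted p = 0.00255). Its range was 131 to 514 with the empty virus and 137 to 437 with SETD5, and its late effect was 0.02 ± 0.10 (adjusted p = 0.921). Gys1 and Gbe1 were thus lower over 96 and 192 h with SETD5, and for Pygb the difference was -0.12 ± 0.12 (adjusted p = 0.521). Pygl, another glycogen phosphorylase gene, did not pass the filter and was not tested. It read 77.1 and 102 at 96 and 192 h with the empty virus and 12.3 and 14.8 with SETD5.

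Pgm1 and Pgm2 are named here as in RefSeq, and older mouse lists used the 2 names the other way round. Pgm1, which links glucose 1-phosphate to glucose 6-phosphate, rose late with the empty virus (0.87 ± 0.17, adjusted p = 0.0171), ranged from 157 to 417 there and from 150 to 379 with SETD5, and was lower with SETD5 over 96 and 192 h (-0.89 ± 0.12, adjusted p = 0.000911). Its change over time differed between the viruses by -0.45 ± 0.29 (adjusted p = 0.53), and by -0.97 ± 0.16 (adjusted p = 0.00629) with 96 and 192 h as late. A dim second Pgm1 probe set read 43.1 and 36.4 at 96 and 192 h with the empty virus and 32.3 and 30.4 with SETD5. The late rise of Pgm1 was lost without the 12, 36, 48 or 192 h pair. Pgm2, which acts mainly on pentose phosphates, read 181, 171, 195, 213, 173, 107 and 62.2 with the empty virus and 203, 197, 217, 240, 235, 149 and 112 with SETD5. It fell in both cultures after 48 h and was higher with SETD5 at all 7 hours (late effect 0.43 ± 0.09, adjusted p = 0.0231, lost without the 48, 96 or 192 h pair). Ugp2, which makes UDP-glucose for glycogen, ranged from 643 to 1220 and from 599 to 959, fell at 12 h (-0.44 ± 0.14, adjusted p = 0.0284), and had a late effect of 0.00 ± 0.11 (adjusted p = 0.985).

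Of 74 other genes of the same routes, 33 passed the filter. In the late effect 3 of the 33 were lower with SETD5 and 1 higher, against 4.56% and 7.43% of all genes, with a median of 0.03. Those lower were Pcx (-1.23, adjusted p = 0.0315), the mitochondrial pyruvate carboxylase, Mpc1 (-0.77, adjusted p = 0.00972), a subunit of the carrier that takes pyruvate into mitochondria, and Pdk1 (-0.52, adjusted p = 0.0235), a kinase that turns pyruvate dehydrogenase off. The 1 higher was Pfkfb2 (0.47, adjusted p = 0.0302), a relative of Pfkfb3. Pcx read 95.6 at 0 h and 2876 at 192 h with the empty virus and 105 and 503 with SETD5. Slc2a4, the insulin-regulated glucose carrier, read 334 at 192 h with the empty virus and 54.9 with SETD5 and was not called over 36 to 192 h (-0.98, adjusted p = 0.0661). Over 96 and 192 h Slc2a4 was lower with SETD5 (-1.85 ± 0.18, adjusted p = 0.000156). Of the 33 genes 6 were lower and 4 higher in this window, against 11.5% and 15.8% of all genes.

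A pair of other gene groups was set beside the members. Of all genes, 4.56% were lower and 7.43% higher over 36 to 192 h, and 11.5% and 15.8% over 96 and 192 h. Of 9 tested genes of fat synthesis and its NADPH supply, 4 were lower late and 1 higher (median -0.45), and over 96 and 192 h 7 were lower and 1 higher. The 4 were Srebf1 (-0.73, adjusted p = 0.0106), a transcription factor of lipid synthesis, Scd1 (-0.97, adjusted p = 0.0439), Fasn (-1.27, adjusted p = 0.0337) and Me1 (-0.95, adjusted p = 0.049). Of 13 tested hypoxia targets outside glycolysis, 5 were lower and 1 higher in both windows (median -0.19 over 36 to 192 h), among them Bnip3 (-0.97, adjusted p = 0.0336), Egln3 (-0.93, adjusted p = 0.0359) and Vegfa (-0.54, adjusted p = 0.017), and Ndrg1 was higher (0.53, adjusted p = 0.0263). The part of either group in the members' values was not tested.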

How the data were processed

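RNA was extracted with ISOGEN and labelled with biotin for hybridisation. Each array has 1 deposited intensity per probe set on a linear scale, which the authors made as an average difference with the GeneChip Analysis Suite. Trimming 2% at each end left a mean of 100 on every array, so the arrays had been scaled alike before deposit. The highest intensity was 9698. Gene names came from the platform annotation, checked through Entrez numbers (0 changed). Of 45100 probe sets, 64 were controls, 34944 had 1 symbol, 932 several and 9160 none. A control set stood for a gene only where no ordinary set did, which was the case for Gapdh. The precision is limited by the number of arrays.

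Values of the main probe sets were taken as log2(intensity + 16) for genes at 50 or more on 3 of 14 arrays. Groups were the virus in the labels. Effects of SETD5 were fitted with limma 3.58.1 in R 4.3.3 (lmFit, eBayes, two-sided, Benjamini-Hochberg over all tested genes) with hour as a block. There were 6 residual degrees of freedom over all hours and 5 with windows. Courses within a virus used means of virus by window (8 degrees of freedom), and hours against 0 h used virus as a block. Described in every array were members called in a SETD5 effect, the 4 largest rises and falls from 0 to 192 h with the empty virus, and members of a shared step. Members, lists and windows were chosen with earlier results of these data known. Alternatives were quantile or common-median scaling, offsets of 4 and 64, no filter or 100, every probe set, a trend and robust prior, no hour block, other windows and leaving out each hour. Sequences and motifs came from RefSeq windows.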

Additional observations from a re-analysis of the deposited data

Results flagged for a closer look

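The difference of Slc2a1 at 192 h (0.83, higher with SETD5) stood apart from those of the other 6 hours. Its gap to the next hour was 0.644 of the whole range. The 7 hourly differences of 26 members were looked at in this way, and chance alone sets about 1 in 20 apart.

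With 96 and 192 h as the late hours, the change from the early hours differed between the viruses for 13 members, tested as the difference of the 2 changes in limma. The values, SETD5 virus minus empty virus on the log2 scale, were -1.87 for Taldo1, -1.27 for Hk2, -1.07 for Gys1, -0.99 for Gbe1, -0.98 for Tkt, -0.97 for Pgm1, -0.87 for Pgd, -0.86 for Aldoa, -0.84 for Pfkl, -0.79 for Ldhb, -0.65 for Rpe, -0.64 for Ldha and -0.59 for Rpia.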

How the results depend on the processing

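The 42 called values of members had 601 alternative values, of which 498 stayed called in the same direction, 103 missed the threshold and 0 changed sign. Values not called in the main fit were not followed in this way. The late calls of Hk2, Gys1 and Rpia were missed only with no hour block. The late effect called 8 members, 4 with no filter, 0 without the hours as a block (no paired hours), 18 with only 96 and 192 h late and 3 to 13 with each hour left out (5 without 12 h, 13 without 36 h, 4 without 48 h, 3 without 96 h, 4 without 192 h). The late minus early effect called 0, then 13 with only 96 and 192 h late and 0 to 2 with each hour left out (2 without 36 h). The effect over all hours called 1 (Gys1), 2 with every probe set tested, 0 to 1 with each hour left out and 0 with no filter, a filter of 100, quantile normalization, scaling to a common median, offsets of 4 and 64, the trend and robust prior or no replicate block. The early effect called 0 throughout. Late against early calls with the empty virus numbered 6, 3 with 2 windows and 0 to 7 with each hour left out (6 higher and 1 lower without 0 h, 2 without 12, 48 or 96 h, 3 without 24 h, 0 without 192 h). With SETD5 they numbered 0, and 0 to 6 with each hour left out (3 higher and 3 lower without 0 h). At 48 h against 0 h the count was 8, 5 with no filter and 6 to 13 with each hour left out (13 without 192 h). With each hour left out, the counts at 12 and 192 h (13 and 6) were 13 to 14 and 5 to 6. The cause of these shifts was not tested. With 1 array per virus and hour, the spread is that of the differences between hours, so effects that grow with time widen it.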
